A study of Mus musculus with 15 samples.

Results

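The 10 genes described here belong to the pathway that carries calcium signals from the T cell receptor (TCR) to the nucleus, and were measured in mouse CD8+ T cells. They are the transcription factors Nfatc1, Nfatc2, Nfatc3 and Nfat5, the calcineurin catalytic subunit Ppp3ca, the calcineurin inhibitor Rcan1, the calcium sensors Stim1 and Stim2, the calcium channel subunit Orai1 and the transcription factor Tox. They were chosen by gene symbol and by what they are known to do, and all 10 had a row in both deposited tables, that is 10 of 11262 genes in the table of naïve and 24 h activated cells and 10 of 11211 genes in the table of cytotoxic T lymphocytes (CTL). All cells came from P14 mice, whose transgenic TCR recognises residues 33 to 41 of the glycoprotein of lymphocytic choriomeningitis virus (gp33–41). The first table held 3 groups of 3 libraries. Naïve cells were taken ex vivo from lymph nodes and sorted as TCRβ+ CD8+ cells with high CD62L and low CD44. TCR activated cells had spent 24 h with the gp33–41 peptide (100 ng/ml) together with the cytokines IL-2, at 20 ng/ml, and IL-12, at 2 ng/ml, and were sorted as live CD8+ cells. The third group received the same culture with 10 µM IC87114, a selective inhibitor of PI3K p110δ (PI3Kdi). Each replicate pooled the lymph node cells of 3 mice and was divided between these 3 conditions. The mice were female and 9 to 13 weeks old. The second table held 2 groups of 3 CTL libraries. Those cells had been activated for 48 h, were grown for 4 days in 20 ng/ml IL-2, and were then, on day 6, returned to IL-2 or deprived of IL-2 for 24 h. No age, pool or sort is stated for them. For replicates 2 and 3 of the IL-2 maintained CTL the treatment label names a different interleukin, and these libraries were grouped by title and growth protocol.

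Engagement of the TCR empties calcium from the endoplasmic reticulum. STIM1 and STIM2 sense this loss and open channels built from ORAI subunits in the plasma membrane, and the calcium that enters activates the phosphatase calcineurin. Calcineurin removes phosphates from NFATC1, NFATC2 and NFATC3, which then move into the nucleus and, with AP-1, drive cytokine and activation genes. NFAT5 lacks the calcineurin binding of its relatives and is best known for the response to hypertonic stress. RCAN1 binds and restrains calcineurin, and TOX is a nuclear factor known downstream of calcineurin and NFAT in chronically stimulated CD8+ T cells. Because the pathway is switched by calcium and dephosphorylation, mRNA levels do not describe its activity. The levels given here are relative to the other mRNA of a library, and do not give molecules per cell, synthesis or protein.

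The deposited values are FPKM, fragment counts scaled to exon length and to library size, so levels can be set side by side between genes within a table. The 2 tables were normalised separately, and no test was made across them. Replicates of a group had Pearson r of 0.983 to 0.995 across genes, which are not independent replicates, and no library stood apart. The CD8 T cell genes Cd8a, Cd8b1, Cd3d, Cd3e and Cd3g were all measured, with a summed FPKM of 3189 to 3482 in naïve, 637 to 685 in TCR activated and 811 to 953 in PI3Kdi cells, and of 971 to 1042 in CTL with IL-2 and 1876 to 2069 in CTL without IL-2. Markers of other cells also moved with the groups. The 3 B cell markers Cd79a, Cd79b and Ms4a1 were listed in the first table and summed to 20.6 to 25.4 FPKM in naïve cells, 3.81 to 5.77 in TCR activated cells and 3.06 to 4.10 in PI3Kdi cells. Of these 3, the CTL table listed 1 (Cd79b), with 2.74 to 6.30 FPKM with IL-2 and 10.8 to 20.6 without. The 2 of 5 myeloid markers listed (Itgam and Cd68) summed to 1.85 to 4.97 FPKM over the 9 libraries of the first table, and to 5.36 to 9.34 with IL-2 and 9.99 to 16.9 without IL-2 in CTL. In CTL, the dendritic cell marker Itgax (1 of 4 listed) stood at 0.21 to 0.39 FPKM with IL-2 and 3.67 to 5.17 without, and the NK cell marker Klrb1c (1 of 2 listed) at 1.2 to 1.88 and 2.17 to 3.41. Of the CD4 T cell markers, 1 of 2 was listed in each table, Foxp3 at no more than 0.93 FPKM in the first and Cd4 at no more than 1.92 FPKM in CTL. No red cell marker was listed. The part of these markers in the results below was not tested. In bulk libraries, fewer cells of a type and less RNA per cell cannot be told apart.

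Nfatc3 had the highest group mean of the 10 genes in all 5 groups, and Rcan1 and Tox were among the lowest 3 in every group but naïve. In naïve cells, Nfatc3 (76.0 ± 4.61 FPKM, mean ± SD, n = 3 here and below) and Stim1 (61.3 ± 0.68) exceeded 91.7% and 89.3% of the genes of the table. Nfatc1 (37.5 ± 6.95) and Tox (35.8 ± 5.78) came next, and these neighbours overlapped. Ppp3ca (23.2 ± 1.74) and Orai1 (22.3 ± 3.60) overlapped as well. Nfatc2 (15.9 ± 3.91), Nfat5 (11.1 ± 3.11) and Stim2 (10.7 ± 1.00) also overlapped from each neighbour to the next. Rcan1 (3.80 ± 0.47) was lowest and exceeded 26.1% of genes. The median gene of the table had a group mean of 12.3 FPKM in naïve cells. In TCR activated cells the order ran from Nfatc3 (33.7 ± 1.24) over Nfatc1 (25.3 ± 2.16), Stim1 (20.9 ± 3.45) and Orai1 (18.9 ± 2.73) down to Rcan1 (3.81 ± 0.49), with Stim1 and Orai1 overlapping. In CTL kept in IL-2, Nfatc3 (59.1 ± 1.98) was followed by Nfatc2 (47.5 ± 2.54) and Ppp3ca (35.0 ± 3.16), and Tox (2.01 ± 0.62) was last and exceeded 17.6% of genes.

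**Figure D1:**
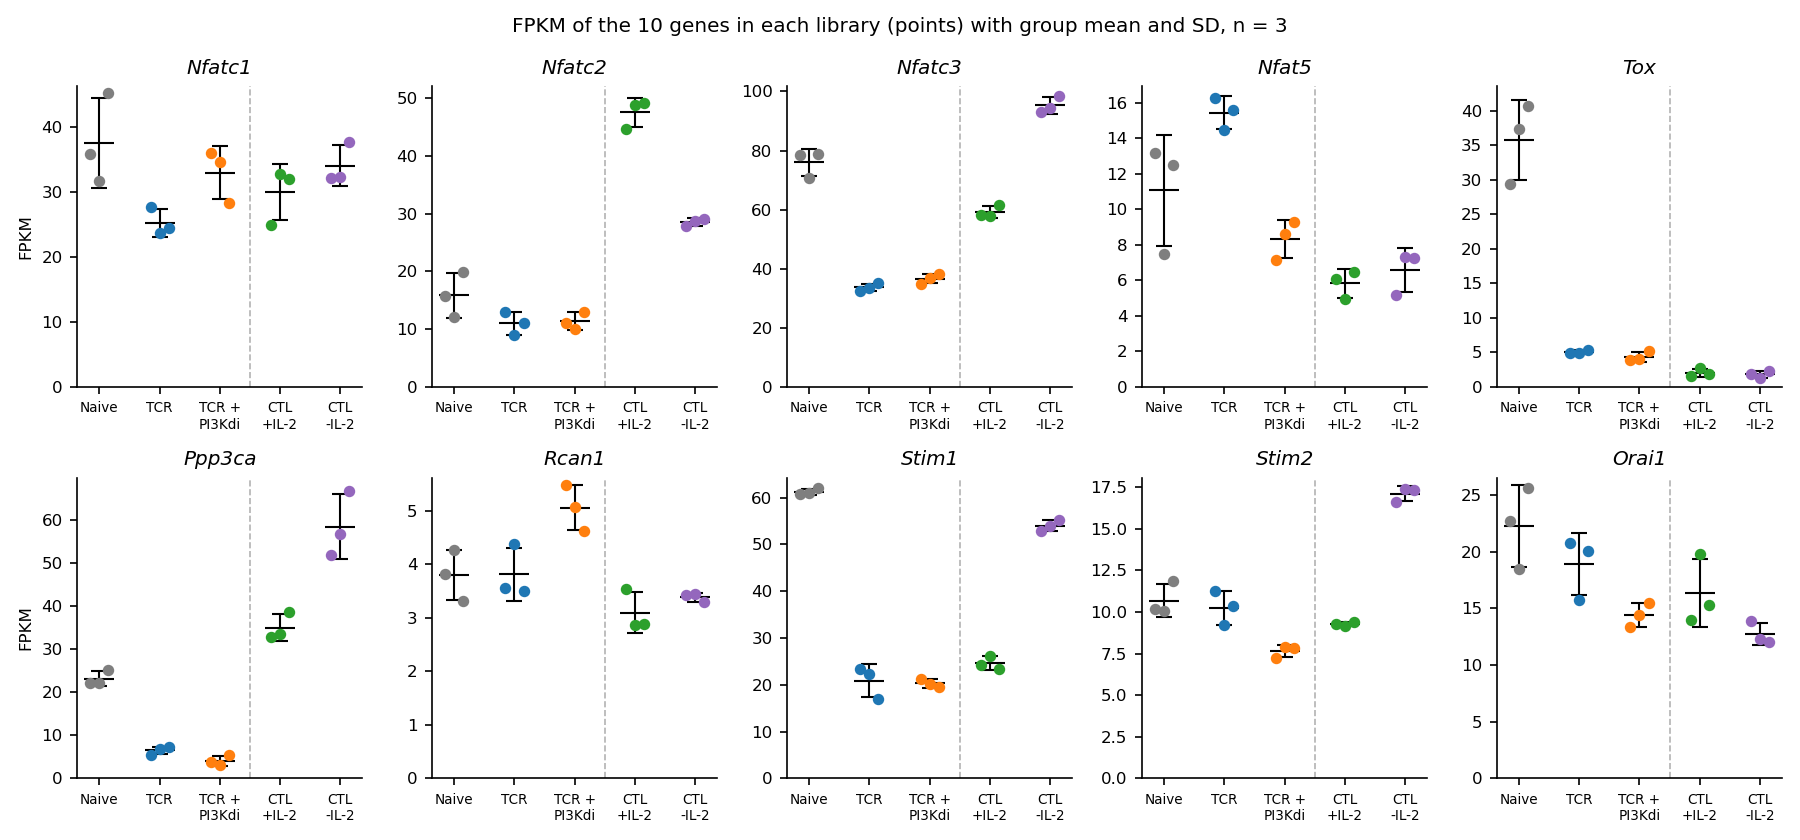
FPKM of each of the 10 genes (1 panel per gene, vertical axis from 0) in the 15 libraries, grouped on the horizontal axis as naïve, TCR activated (TCR), TCR activated with PI3Kdi, CTL with IL-2 and CTL without IL-2. Points are libraries, bars are mean and SD (n = 3), and the dashed line separates the 2 tables; Tox, Stim1, Nfatc3 and Ppp3ca lie highest in naïve cells of the first table, and Stim1, Stim2, Nfatc3 and Ppp3ca lie higher in CTL without IL-2 than with it.

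The first comparison sets the TCR activated cells, after 24 h of culture with peptide, IL-2 and IL-12, against uncultured naïve cells. Effects of antigen, cytokines, culture and the different sort cannot be told apart here, and activation is written below for all of them together. Tox, Ppp3ca, Stim1 and Nfatc3 fell by more than 2-fold, Nfatc1 and Nfatc2 fell by less, Nfat5 rose by less than 2-fold, and Orai1, Stim2 and Rcan1 did not pass the test. A gene is written here as having risen or fallen where its adjusted p in limma (Benjamini-Hochberg over all genes of the table) was under 0.05, and as called changed where in addition its fold change was above 2 or below 0.5. By that rule 4 of the 10 genes were called, all lower, where 48.7% of all genes were called in either direction. Without the limit on fold, 7 of 10 passed, where 80.8% of all genes did. The median log2 fold change was -0.54 over the 10 genes and 0.01 over all genes tested.

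Nfatc3 (chromosome 8 of mm10 from 106058818 to 106130537, plus strand) stood at 78.6, 70.7 and 78.7 FPKM in naïve replicates 1, 2 and 3 and at 32.6, 33.6 and 35.0 after activation. Every activated library was below every naïve one, at 0.445 of the naïve level (95% confidence interval 0.395 to 0.501), with a log2 fold change of -1.17 ± 0.08 (SE) and adjusted p = 7.8e-08. Its annotated span overlaps the protein-coding gene Esrp2, and 7 of the 10 members overlap some other annotated gene. For the other members these are lncRNA genes (Nfatc1, Nfat5, Rcan1 and Tox) or pseudogenes (Stim1 and Stim2). Whether the counting used strand is not given in the sources used here, so reads from such a pair may not be told apart. Nfatc1 (chromosome 18, 80606205 to 80713071, minus strand), the factor whose short form is induced by NFAT itself in activated lymphocytes, stood at 35.8, 31.6 and 45.2 FPKM in naïve cells and 27.7, 23.6 and 24.5 after activation. The groups did not overlap, and Nfatc1 was lower at 0.68 of the naïve level (0.551 to 0.839, adjusted p = 0.0029). The values are per gene, so the short and long forms of Nfatc1 cannot be told apart. Nfatc2 (chromosome 2, 168476410 to 168601657, minus strand), the main NFAT protein of resting T cells, stood at 15.82, 12.03 and 19.84 FPKM in naïve cells and 12.97, 9.01 and 10.98 after activation. The groups overlapped in range, although each activated library was below the naïve library of the same number, and the fold was 0.7 (0.525 to 0.933, adjusted p = 0.025 and 0.0048 with the replicate number as a block). Without replicate 3 its adjusted p was 0.15, and with the libraries scaled to the same median it was 0.075. Nfat5 (chromosome 8, 107293435 to 107379517, plus strand) moved the other way, from 13.2, 7.49 and 12.5 FPKM to 16.3, 14.4 and 15.6. All 3 activated libraries were above all naïve ones, with a fold of 1.43 (1.07 to 1.92, adjusted p = 0.027), but without replicate 2, whose naïve library was the lowest, the adjusted p was 0.12.

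Tox (chromosome 4, 6686353 to 6991557, minus strand) had the largest change among the 10 genes. It stood at 29.4, 37.3 and 40.7 FPKM in naïve cells and 4.97, 4.86 and 5.32 after activation, which is 0.145 of the naïve level (0.115 to 0.181). The log2 fold change was -2.79 ± 0.15 (SE) and the adjusted p was 1.2e-08. The calcineurin catalytic subunit Ppp3ca (chromosome 3, 136669714 to 136937727, plus strand) stood at 22.2, 22.1 and 25.2 FPKM and then 5.50, 6.72 and 7.23. No activated library came near the naïve range, and the fold was 0.282 (0.213 to 0.372, adjusted p = 2.4e-06). The calcineurin inhibitor Rcan1 (chromosome 16, 92391951 to 92466169, minus strand) was 3.81, 4.26 and 3.32 FPKM before and 3.55, 4.38 and 3.50 after. These ranges overlapped almost wholly, and the fold was 1.00 with an interval from 0.801 to 1.26 (adjusted p = 0.98).

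Among the calcium entry genes, Stim1 (chromosome 7, 102261514 to 102437319, plus strand) stood at 60.8, 61.0 and 62.1 FPKM in naïve cells and at 23.5, 22.2 and 17.0 after activation. The groups were far apart, with a fold of 0.339 (0.285 to 0.403, adjusted p = 1.6e-07). Its relative Stim2 (chromosome 5, 53998523 to 54121057, plus strand), the sensor that responds to smaller losses of stored calcium, stood at 10.2, 10.0 and 11.8 FPKM and then 11.2, 9.20 and 10.3. Stim2 overlapped between the groups, and its interval ran from 0.805 to 1.14-fold (adjusted p = 0.64). The channel subunit Orai1 (chromosome 5, 123015074 to 123030452, plus strand) stood at 22.7, 18.5 and 25.6 FPKM in naïve cells and 20.8, 15.8 and 20.1 after activation. It was lower in each of the 3 same-numbered pairs, but the ranges overlapped and the test was not passed (fold 0.851, 0.686 to 1.05, adjusted p = 0.15, or 0.087 with the replicate block). Scaling the libraries to the same median moved the median of all genes by 0.12 on the log2 scale in this comparison. Under that scaling the log2 fold change of Stim2 was 0.064 in place of -0.059, neither of them past the test.

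**Figure D2:**
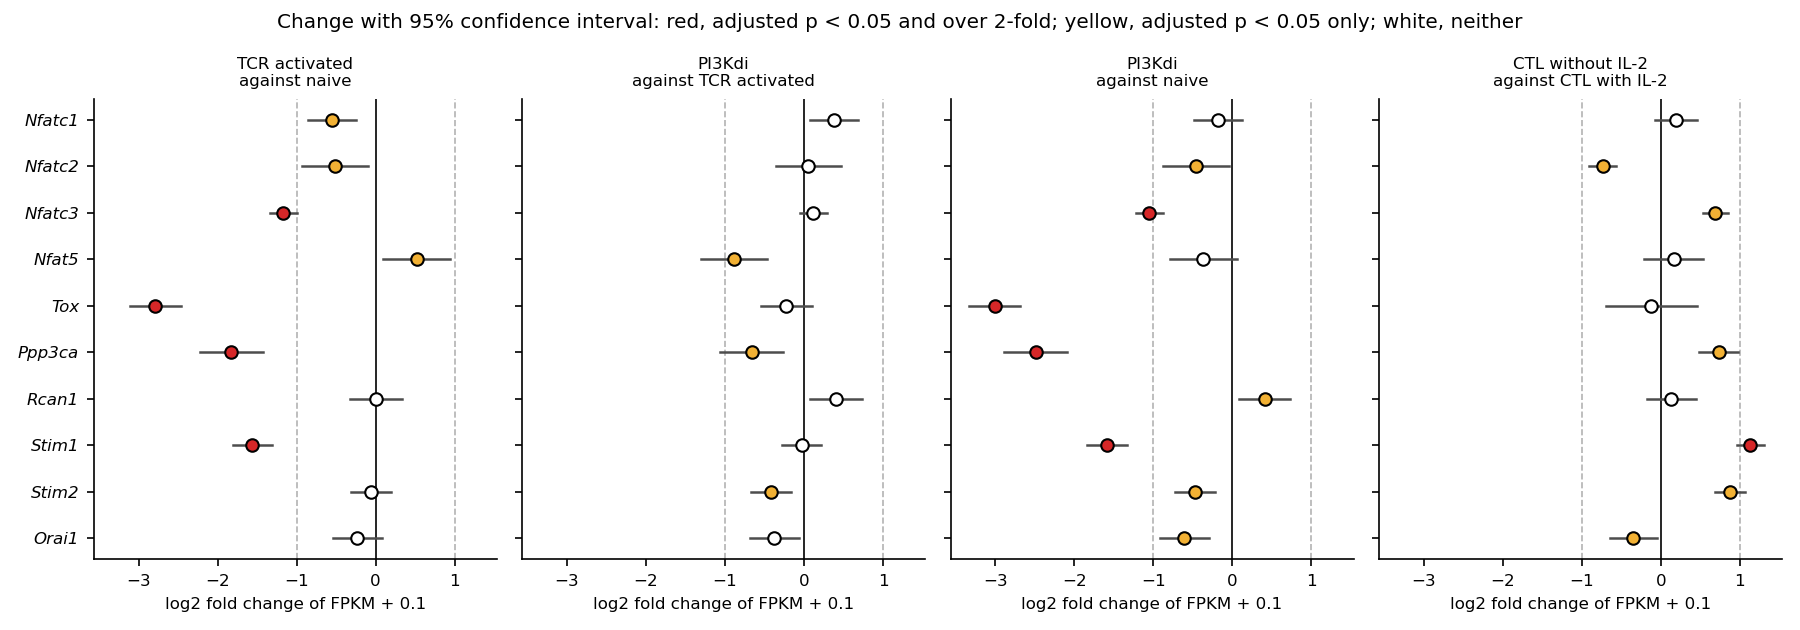
Log2 fold change of FPKM + 0.1 (horizontal axis) with its 95% confidence interval for each of the 10 genes (vertical axis) in 4 comparisons, from the limma fits. Red points passed adjusted p and the 2-fold limit (dashed lines), yellow points passed adjusted p only and white points neither; red points number 4, 0, 4 and 1 from left to right.

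The second comparison asks what PI3K p110δ inhibition did to the activated cells. Nfat5, Ppp3ca and Stim2 were lower with the inhibitor, each by less than 2-fold, and Tox, Stim1 and Nfatc3, which had fallen on activation, overlapped between the 2 activated groups. None of the 10 genes was called changed in limma, where 5.14% of all genes were. At an adjusted p under 0.05 without the fold limit 3 of 10 passed, all lower, where 17.5% of all genes did, and 6 of 10 had an unadjusted p under 0.05, where 31.5% of all genes had. The median log2 fold change was -0.13 over the 10 genes and -0.01 over all genes.

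Nfat5 stood at 7.15, 8.62 and 9.25 FPKM with PI3Kdi, below the 14.4 to 16.3 FPKM of the TCR activated libraries. The fold was 0.541 (0.403 to 0.726, adjusted p = 0.0098), which is the largest change among the 10 genes in this comparison, and without replicate 1 the adjusted p was 0.078. Ppp3ca stood at 3.88, 3.12 and 5.39 FPKM, just below the lowest TCR activated library at 5.50. Its fold was 0.631 (0.478 to 0.833, adjusted p = 0.029, or 0.015 with the replicate block). Without replicate 1 or 2 its adjusted p was 0.09 or 0.30, and in a fit of the compared groups alone it was 0.073. Stim2 stood at 7.21, 7.92 and 7.82 FPKM, all below the lowest TCR activated library at 9.20. The fold was 0.75 (0.63 to 0.894, adjusted p = 0.031), and with any 1 of the 3 replicate numbers left out the adjusted p was 0.11 to 0.21.

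A further 3 genes did not overlap between the groups without passing the adjusted test, which makes 6 of 10 with no overlap, where 36.7% of all genes had none. Nfatc1 stood at 36.0, 34.6 and 28.3 FPKM with PI3Kdi, above the 23.6 to 27.7 FPKM of the TCR activated libraries. Its fold was 1.3 (1.05 to 1.6, adjusted p = 0.084), and without replicate 3 the adjusted p was 0.049. Rcan1 stood at 5.48, 5.06 and 4.63 FPKM, above the highest TCR activated library at 4.38, with a fold of 1.32 (1.06 to 1.66, adjusted p = 0.085). Orai1 stood at 13.3, 14.5 and 15.5 FPKM, below the lowest TCR activated library at 15.8, with a fold of 0.769 (0.62 to 0.954, adjusted p = 0.09, or 0.052 with the replicate block).

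The other 4 genes overlapped between TCR activated cells with and without PI3Kdi. Tox stood at 3.85, 4.03 and 5.16 FPKM with the inhibitor (fold 0.857, 0.684 to 1.07, adjusted p = 0.34). Stim1 stood at 21.2, 20.2 and 19.5 FPKM, inside the range of 17.0 to 23.5 of the TCR activated libraries, and its interval ran from 0.824 to 1.17-fold (adjusted p = 0.89). Nfatc3 stood at 34.9, 36.7 and 38.0 FPKM (fold 1.08, 0.962 to 1.22, adjusted p = 0.35). Nfatc2 stood at 11.01, 10.03 and 13.04 FPKM (fold 1.04, 0.779 to 1.38, adjusted p = 0.87).

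Against naïve cells, the PI3Kdi cells had 4 of the 10 genes called, all lower, where 45.0% of all genes were called, and 8 of 10 past the adjusted p without the fold limit, where 79.1% of all genes were. This comparison shares its naïve libraries with the first one, so the values are given only side by side. The log2 fold change of Tox was -3.01 here and -2.79 for TCR activation alone, that of Ppp3ca -2.49 and -1.83, that of Stim1 -1.59 and -1.56, and that of Nfatc3 -1.05 and -1.17. For Nfatc3 the call was lost without replicate 1 (-0.99) and with the libraries scaled to the same median (-0.96), where it came to just under 2-fold. Rcan1, with a fold of 1.33 (1.06 to 1.66, adjusted p = 0.025), was above every naïve library in all 3 PI3Kdi libraries, but its adjusted p was 0.14 without replicate 1 and 0.08 without replicate 3. Orai1 at 0.654 of the naïve level (0.528 to 0.811, adjusted p = 0.0019) and Stim2 at 0.72 (0.604 to 0.858, adjusted p = 0.0027) were lower than in naïve cells, with no overlap of the libraries. Nfatc2 was lower by limma at 0.727 (0.545 to 0.969, adjusted p = 0.042, or 0.0092 with the replicate block), with adjusted p = 0.15 without replicate 1, 0.11 without replicate 3, 0.061 without an intensity trend and 0.093 with median scaling. Nfatc1 (0.883, 0.716 to 1.09, adjusted p = 0.25) and Nfat5 (0.775, 0.578 to 1.04, adjusted p = 0.099) did not pass, although without replicate 2 the adjusted p of Nfat5 was 0.0076.

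The CTL libraries asked what 24 h without IL-2 did to the same genes. Both calcium sensors, Stim1 and Stim2, rose, Nfatc3 and Ppp3ca rose, and Nfatc2 and Orai1 fell, while Nfatc1, Nfat5, Rcan1 and Tox did not pass the test. Stim1 alone was called changed, that is 1 of the 10 genes where 28.2% of all genes were called. Without the fold limit 6 of 10 passed, 4 higher and 2 lower, where 71.9% of all genes did. The median log2 fold change was 0.18 over the 10 genes and 0.00 over all genes.

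Stim1 stood at 24.2, 26.2 and 23.5 FPKM with IL-2 and 52.9, 53.9 and 55.2 without. The 2 groups were far apart, with a fold of 2.19 (1.94 to 2.47), a log2 fold change of 1.13 ± 0.08 (SE) and adjusted p = 1.6e-06. Stim2 stood at 9.25, 9.15 and 9.41 FPKM with IL-2 and 16.6, 17.4 and 17.4 without. It too did not overlap, and it rose 1.84-fold (1.61 to 2.10, adjusted p = 1.4e-05), just under the 2-fold limit. The channel subunit Orai1 went the other way, from 13.99, 19.78 and 15.31 FPKM to 13.87, 12.29 and 12.04. The nearest libraries of the groups differed by little, and the fold of 0.787 (0.639 to 0.969, adjusted p = 0.04) rested on replicate 2, without which the adjusted p was 0.32. It was also 0.10 without replicate 3, 0.065 without an intensity trend and 0.051 with median scaling.

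Nfatc3 stood at 58.1, 57.9 and 61.4 FPKM with IL-2 and 93.0, 94.4 and 98.6 without, and Nfatc2 at 44.6, 48.9 and 49.2 with IL-2 and 27.8, 28.7 and 29.2 without. These NFAT genes thus moved in opposite directions with no overlap in either, Nfatc3 by 1.61-fold (1.44 to 1.80, adjusted p = 1.8e-05) and Nfatc2 to 0.602 of its level (0.535 to 0.678, adjusted p = 2.1e-05). Nfatc1 stood at 25.0, 32.8 and 32.0 FPKM with IL-2 and 32.2, 32.3 and 37.6 without, overlapping, with a fold of 1.14 (0.95 to 1.37, adjusted p = 0.17). Nfat5 stood at 6.08, 4.93 and 6.46 FPKM and then 5.16, 7.33 and 7.25, also overlapping (fold 1.12, 0.865 to 1.45, adjusted p = 0.39). Ppp3ca stood at 32.7, 33.6 and 38.6 FPKM with IL-2 and 51.7, 56.8 and 66.7 without. All deprived libraries were above all others, with a fold of 1.66 (1.40 to 1.97, adjusted p = 0.00022). Rcan1 ranged from 2.86 to 3.54 FPKM with IL-2 and 3.29 to 3.45 without, so its groups overlapped (fold 1.10, 0.885 to 1.36, adjusted p = 0.40). Tox ranged from 1.52 to 2.71 FPKM with IL-2 and 1.3 to 2.29 without (fold 0.919, 0.616 to 1.37, adjusted p = 0.69), and without replicate 2 the sign of its change turned (log2 fold change 0.32, adjusted p = 0.26).

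Because Stim1, Stim2 and Nfatc3 rose together in IL-2 deprived CTL while Nfatc2 fell, the 250 bases before their RefSeq start sites are shown (build GRCm38.p6, 5′ to 3′ on the strand of the gene). Capitals mark GGAAA, the core that NFAT proteins recognise, or its reverse complement TTTCC.
Stim1: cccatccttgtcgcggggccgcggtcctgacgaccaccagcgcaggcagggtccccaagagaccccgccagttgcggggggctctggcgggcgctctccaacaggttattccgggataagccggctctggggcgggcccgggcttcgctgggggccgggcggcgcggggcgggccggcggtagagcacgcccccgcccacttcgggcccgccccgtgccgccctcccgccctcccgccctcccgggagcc
Stim2: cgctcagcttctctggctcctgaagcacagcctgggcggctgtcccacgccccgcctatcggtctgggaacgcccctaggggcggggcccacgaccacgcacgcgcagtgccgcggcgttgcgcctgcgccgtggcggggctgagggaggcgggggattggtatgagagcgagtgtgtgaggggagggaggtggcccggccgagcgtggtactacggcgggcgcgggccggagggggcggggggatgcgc
Nfatc3: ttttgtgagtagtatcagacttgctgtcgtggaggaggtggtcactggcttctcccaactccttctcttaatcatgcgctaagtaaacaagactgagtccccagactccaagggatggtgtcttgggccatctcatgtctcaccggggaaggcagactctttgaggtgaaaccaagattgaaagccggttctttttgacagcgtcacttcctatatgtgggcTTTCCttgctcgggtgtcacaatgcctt
Nfatc2: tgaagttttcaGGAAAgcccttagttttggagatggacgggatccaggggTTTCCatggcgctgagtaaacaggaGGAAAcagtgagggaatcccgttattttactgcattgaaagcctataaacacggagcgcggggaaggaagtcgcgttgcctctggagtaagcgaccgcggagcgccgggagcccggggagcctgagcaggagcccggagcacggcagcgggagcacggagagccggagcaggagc
The windows are chr7:102267569-102267818 (plus strand), chr5:53998273-53998522 (plus), chr8:106058568-106058817 (plus) and chr2:168601658-168601907 (minus). Counting both strands, Nfatc2 had 3 matches of GGAAA, Nfatc3 had 1, and Stim1 and Stim2 had 0. Among 32851 promoter windows of 250 bases from RefSeq, 55.6% held GGAAA at least once and 6.39% held it 3 times or more. TGTTTAC, a core of the forkhead family to which FOXO factors belong, was found once in these windows of Nfatc2 and Nfatc3, as its reverse complement GTAAACA, and in 3.17% of all windows. A window at a second start site of Nfatc3 had no match of GGAAA and one of Nfatc2 had 1. Of the other members with a RefSeq window, Orai1, which like Nfatc2 fell in CTL without IL-2, had 0 matches of GGAAA. Nfat5 had 2, and Rcan1 had 0 at its outer start and 3 at its inner start. Altogether 7 of the 10 genes had a window, and Nfatc1, Ppp3ca and Tox had none. The window of Stim1 lies inside the longer annotated span given above. These matches are letters in a sequence and not binding sites.

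The make-up of the gene families around these members also differed between groups. Orai1, Orai2 and Orai3 encode the channel subunits, and their summed FPKM was 132 ± 8.73 in naïve cells, 32.5 ± 2.98 after activation and 33.1 ± 3.65 with PI3Kdi. Orai2 made up 72.2% ± 1.42 of this sum in naïve cells and 12.3% ± 3.55 after activation. Its level was 99.5, 88.2 and 99.2 FPKM in naïve and 3.02, 3.60 and 5.41 FPKM in TCR activated libraries, a log2 fold change of -4.58 ± 0.20 (SE, adjusted p = 2.3e-09). Orai1, which did not pass the test itself, thereby went from 16.7% ± 1.65 to 57.9% ± 3.28 of the sum. With PI3Kdi Orai2 stood at 5.82, 7.35 and 8.52 FPKM, above all TCR activated libraries (log2 fold change 0.86, adjusted p = 0.013), which is under the 2-fold limit. In CTL Orai2 stood at 16.0, 13.3 and 11.5 FPKM with IL-2 and 55.7, 56.2 and 60.3 without (log2 fold change 2.08, adjusted p = 6.7e-07). Orai3 fell on activation from a mean of 14.6 to 9.62 FPKM (adjusted p = 0.0012), stood at 11.5 FPKM with PI3Kdi (adjusted p = 0.21), and rose from 10.8 to 19.9 FPKM in CTL without IL-2 (adjusted p = 2.2e-05). The sum of the Orai genes was 40.8 ± 3.20 FPKM in CTL with IL-2 and 90.1 ± 2.10 without.

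The calcineurin catalytic subunits are encoded by Ppp3ca, Ppp3cb and Ppp3cc, and Ppp3cc was the highest of them in all 5 groups. Ppp3ca made up 23.1% ± 1.78 of their summed FPKM in naïve cells, 9.83% ± 1.96 after activation and 5.44% ± 1.37 with PI3Kdi. In CTL its share was 17.0% ± 0.78 with IL-2 and 32.0% ± 2.66 without. Ppp3cc fell on activation from a mean of 43.3 to 31.4 FPKM (adjusted p = 0.00098), was higher with PI3Kdi at 45.7 FPKM (adjusted p = 0.0037) and fell in CTL without IL-2 from 132 to 89.9 FPKM (adjusted p = 7.1e-05), so that Ppp3ca and Ppp3cc moved in opposite directions in these last 2 comparisons. Ppp3cb fell from 33.7 to 28.7 FPKM on activation (adjusted p = 0.03), stood at 25.8 with PI3Kdi (adjusted p = 0.29), and stood at 39.1 and 33.9 FPKM in CTL with and without IL-2 (adjusted p = 0.062). The regulatory subunit Ppp3r1 had means of 52.6, 45.4 and 40.5 FPKM in naïve, TCR activated and PI3Kdi cells, with neither step past the test (adjusted p = 0.15 and 0.53), and fell from 38.7 to 32.8 FPKM in CTL without IL-2 (adjusted p = 0.034). Rcan3, a relative of Rcan1, fell on activation from 5.47 to 4.23 FPKM (adjusted p = 0.023), was higher with PI3Kdi at 6.64 FPKM (adjusted p = 0.0072), and had means of 10.4 and 11.1 FPKM in CTL with and without IL-2 (adjusted p = 0.52).

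The summed FPKM of Nfatc1, Nfatc2 and Nfatc3 was 129 ± 14.7 in naïve, 70.0 ± 3.55 in TCR activated and 80.9 ± 1.33 in PI3Kdi cells. Nfatc1 made up 37.8%, 35.7% and 34.7% of it in the TCR activated replicates and 43.9%, 42.6% and 35.6% with PI3Kdi. It was higher in 3 of 3 pairs, but the groups overlapped and the difference of 4.63 percentage points did not pass (p = 0.3 in an exact permutation test, two-sided, which cannot go below 0.1 with 3 libraries on each side, and 0.4 after Benjamini-Hochberg adjustment over the 4 share tests made). In CTL the share of Nfatc1 was 21.8% ± 2.05 with IL-2 and 21.5% ± 1.07 without (exact permutation p = 0.9, adjusted 0.9), while Nfatc2 went from 34.8% ± 0.28 to 18.1% ± 0.42 and Nfatc3 from 43.4% ± 2.03 to 60.4% ± 0.67. Stim1 made up 67.6%, 70.7% and 62.2% of the summed Stim1 and Stim2 in TCR activated libraries and 74.6%, 71.8% and 71.3% with PI3Kdi. These groups did not overlap, and the exact permutation p of 0.1 (adjusted 0.2) is the smallest that this design allows. In CTL the share of Stim1 was 72.6% ± 1.39 with IL-2 and 75.9% ± 0.28 without, also with no overlap and an exact permutation p of 0.1 (adjusted 0.2). Over the differences within same-numbered pairs, an exact sign permutation gave p = 0.25, its smallest possible value, for Nfatc1 and Stim1 with PI3Kdi and for Stim1 in CTL. Nfatc4 was not listed. Tox4 had means of 32.8, 34.4 and 41.0 FPKM in naïve, TCR activated and PI3Kdi cells, with adjusted p = 0.41 for activation and 0.041 for PI3Kdi (0.055 with the replicate block), and fell from 39.1 to 33.4 FPKM in CTL without IL-2 (adjusted p = 0.019). Tox2 was low throughout the first table, with 0 (a blank cell), 0.18 and 0.19 FPKM in naïve, 0.54, 0.25 and 0.37 in TCR activated and 3.17, 2.55 and 2.28 in PI3Kdi libraries. Its rise with PI3Kdi was called (log2 fold change 2.54 on the log2(FPKM + 0.1) scale, adjusted p = 0.0014), although with a pseudocount of 0.01 the adjusted p was 0.067. Its rise on activation (adjusted p = 0.013) was lost without replicate 1 (adjusted p = 0.12). Tox2 was not listed in the CTL table.

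**Figure D3:**
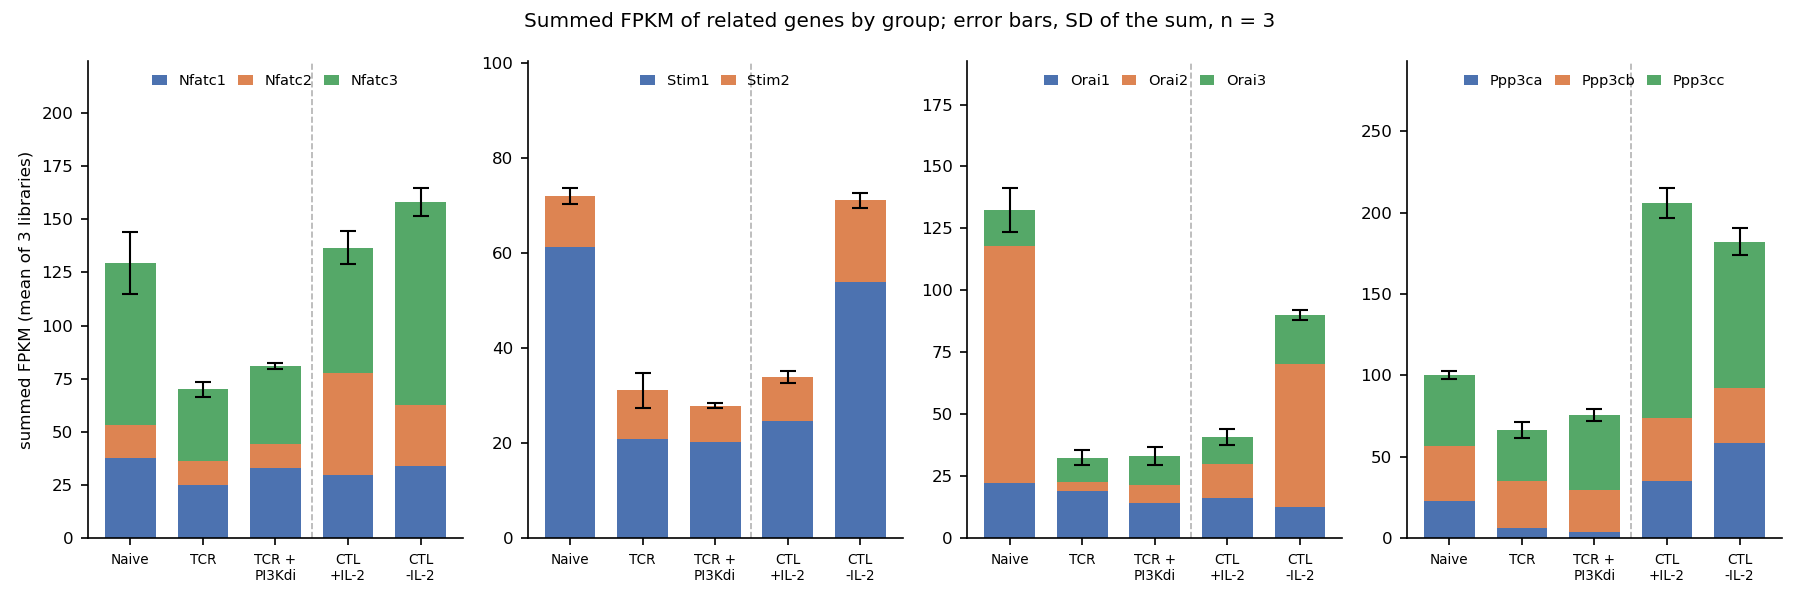
Summed FPKM (vertical axis, from 0) of the NFAT, STIM, ORAI and calcineurin catalytic genes in the 5 groups, stacked by gene; error bars are the SD of the sum (n = 3). The Orai sum drops from 132 FPKM in naïve to 32.5 FPKM in TCR activated cells, mostly through Orai2, and the Nfatc2 part shrinks in CTL without IL-2.

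Of 72 other gene symbols of the pathway in 5 lists, 55 were measured in each table. The 72 include some genes under 2 names (Stimate and Tmem110, Cracr2a and Efcab4b, Cracr2b and Efcab4a), so not every symbol without a row is a missing gene. On activation 18 of these 55 were called higher and 12 lower, beside 48.7% of all genes called. In the list of calcium entry and handling genes 2 of 23 were called higher and 9 lower, with a median log2 fold change of -0.66. After Orai2, the largest falls were those of Itpkb, a kinase that consumes inositol trisphosphate (log2 fold change -2.97), Itpr2, a calcium release channel (-2.87), and Efcab4b, also called Cracr2a, a partner of ORAI and STIM (-2.82). The calcium pump of the plasma membrane Atp2b4 rose instead, from 1.62, 1.16 and 1.82 to 27.8, 16.1 and 16.4 FPKM (log2 fold change 3.60, adjusted p = 4e-08). The pumps of the endoplasmic reticulum moved apart, with Atp2a3 falling from a mean of 155 to 28.0 FPKM and Atp2a2 rising from 28.2 to 120 FPKM (adjusted p = 2.7e-08 and 1.6e-09). In the list of calcineurin subunits, regulators and immunophilins 1 of 7 genes was called, the immunophilin Fkbp1a, which rose (log2 fold change 2.17, median of the list -0.23). Of 8 NFAT kinases and partners, Dyrk2 (-1.92) and Dyrk1a (-1.2), kinases that phosphorylate NFAT, were called lower, with a median of -0.14. Of 15 measured NFAT target genes 14 were called higher and 1 lower, which was Egr3, and the list median of 5.04 depends on the pseudocount for genes listed at 0 in naïve cells. Il2, Il3 and Fasl were at 0 in all naïve libraries and could pass the authors' filter on low counts only through activated libraries. Their rise was thus set by their being listed. Ifng and Lag3 stood at no more than 0.13 and 0.16 FPKM in naïve cells. Of the 18 targets chosen, Csf2, Il4 and Havcr2 were not listed for these cells. Ifng, the effector cytokine gene with the largest change, rose from 0.13, 0.06 and 0.07 FPKM to 1950, 2290 and 2299 FPKM. The checkpoint receptor gene Lag3 (log2 fold change 9.25), Ctla4 (8.10) and the transcription factor gene Irf4 (7.54) followed, and Il3, listed at 0 in all naïve libraries, stood at 26.3, 26.2 and 9.09 FPKM after activation. Il2, also listed at 0 in all naïve libraries, stood at 4.15, 9.35 and 18.8 FPKM after activation.

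With PI3Kdi, 2 of the 55 were called higher and 9 lower, beside 5.14% of all genes called. All 9 lower genes were NFAT targets, of which 15 were measured, with a median log2 fold change of -1.24 over that list. Il3 and Fasl, at 0 in naïve cells, had means of 20.5 and 1.01 FPKM in TCR activated cells and 0.15 and 0.05 FPKM with PI3Kdi. They could thus be listed mainly through the TCR activated libraries, which favoured a fall. The list was also chosen with earlier results of these data known, so its count is a description only. In the same list 2 genes passed the adjusted p as higher, Egr2 (log2 fold change 0.84, adjusted p = 0.037) and Irf4 (0.55, adjusted p = 0.0083). Egr3 (0.88), Ctla4 (0.26), Lag3 (0.22) and Pdcd1 (-0.50) did not pass. Ifng stood at 30.9, 27.5 and 38.8 FPKM with the inhibitor (log2 fold change -6.08, adjusted p = 5.9e-09), Il3 at 0.26, 0.18 and 0 FPKM where TCR activated cells had 26.3, 26.2 and 9.09, and Cd40lg had a log2 fold change of -2.35 (adjusted p = 1.1e-05). Fasl (-2.82) and Nr4a3 (-2.47) were also among the 5 largest falls. Il2 fell from a mean of 10.8 ± 7.45 to 2.90 ± 0.39 FPKM (adjusted p = 0.021). Of the 23 calcium genes 1 was called, P2rx7, a calcium-permeable channel opened by extracellular ATP, which stood at 1.89, 1.5 and 1.58 FPKM in TCR activated and 4.17, 4.31 and 4.68 FPKM in PI3Kdi libraries (log2 fold change 1.36, adjusted p = 0.00044). The median of the calcium list was 0.25, and 9 of its 23 genes passed the adjusted p without the fold limit, 6 higher and 3 lower, where 17.5% of all genes did. None of the 7 genes in the list of calcineurin subunits, regulators and immunophilins or the 8 NFAT kinases and partners was called in limma. The medians were 0.05 and 0.07, and 3 and 2 of them had an unadjusted p under 0.05, beside the 31.5% of all genes. Past the adjusted p without the fold limit were 3 of the 7 and 0 of the 8. These 3 were Ppp3cc, Rcan3 and Fkbp1a (log2 fold change 0.56, adjusted p = 0.0087), all higher.

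In CTL without IL-2, 10 of the 55 were called higher and 11 lower, beside 28.2% of all genes called. In the calcium list 7 of 23 were called higher and 1 lower, with a median log2 fold change of 0.58. Efcab4b (1.88), P2rx7 (1.52), Itpkb (1.49) and Itpr2 (1.49) followed Orai2 in size. Plcg1, the phospholipase that makes inositol trisphosphate, went from 36.6, 34.1 and 32.0 FPKM to 81.3, 83.4 and 95.4 FPKM (adjusted p = 1.5e-06), and the calmodulin kinase Camk4 from a mean of 12.3 to 32.2 FPKM (adjusted p = 2.9e-06). Atp2a2 was the gene called lower, from 87.4, 86.8 and 94.1 to 28.7, 28.9 and 25.4 FPKM (adjusted p = 3.5e-07). The immunophilins Fkbp1a (-1.3) and Ppia (-1.05) were called lower, and Dyrk2 (1.05) was called higher. Of 16 measured NFAT targets 8 were called lower and 2 higher, with a median of -0.81. The largest falls were those of Ifng (-4.63), Tnf (-3.34), Il4 (-2.76), Havcr2 (-2.54) and Nr4a3 (-1.77), and the genes called higher were Ctla4 (2.56) and Lag3 (1.01).

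**Figure D4:**
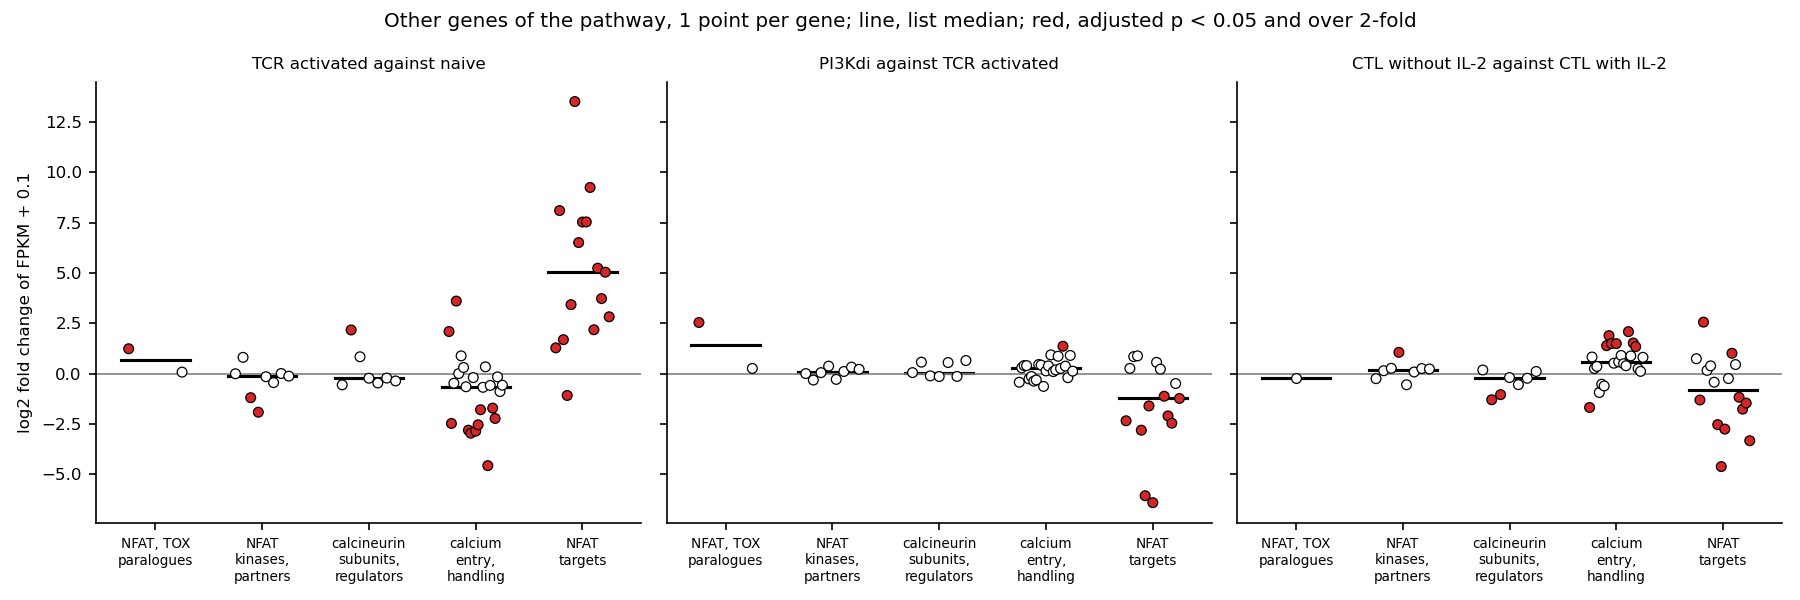
Log2 fold change of FPKM + 0.1 (vertical axis) of the other measured pathway genes, 1 point per gene, by list (horizontal axis) in 3 comparisons; lines are list medians and red points passed adjusted p and the 2-fold limit. Of 15 NFAT targets, 14 are called higher on activation and 9 lower with PI3Kdi, where 2 others passed adjusted p as higher. Il2, Il3 and Fasl among these targets are at 0 in all naïve libraries, so they are listed only through activated libraries. In CTL without IL-2, 7 calcium genes are called higher.

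The genes most like 3 of the members in pattern were found by Pearson r of log2(FPKM + 0.1) over libraries of a table, among genes averaging 1 FPKM or more, as a description. Libraries of a group share their treatment, so a few group differences set these values. Over the 9 libraries of the first table, Nfatc1 was most like Spred2 (r = 0.963), Tubgcp6 (0.951) and Bcl9 (0.944), and 21 of 10072 genes reached 0.9. Rcan1 was most like Snap47 (0.969), Sptlc1 (0.955) and BC057079 (0.935), and 8 genes reached 0.9. Tox was most like Tprgl (0.998), Afmid (0.998) and Epsti1 (0.997), and 2546 genes reached 0.9, so its pattern of high naïve and low activated levels was shared by many genes. Over the 6 CTL libraries, Nfatc1 was most like Sugp1 (0.993), Zfp523 (0.987) and Mta1 (0.984), Rcan1 most like 1700020I14Rik (0.998), Psme4 (0.987) and Rpl22l1 (0.984), and Tox most like Rps15a-ps6 (0.944), Baiap2 (0.937) and Atp6v0b (0.931).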

How the data were processed

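Libraries of polyadenylated RNA (TruSeq Stranded mRNA kit) were read as paired ends of 75 bases, with all 15 libraries in 1 lane. The authors deposited FPKM: per their methods and processing notes, reads were aligned with STAR 2.5.2b to mm10, counted per gene with Subread 1.5.1, filtered by filterByExpr and TMM-normalised in edgeR, and the length of the merged exons of each gene was then divided out. The CTL table was assumed to have gone through the same steps. Values have 2 decimals; 1039 blank cells of the first table were read as 0, and 120 cells of the CTL table are 0. Counts were not used here, and 1 marker gene fixed in the design is not reported here. Read totals are unknown: an estimate from the spacing of the lowest values of short genes (10 to 44 values a library) ran from 10.2 to 38.4 M reads with no clear optimum, and was not used.

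With limma 3.58.1 in R 4.3.3, linear models were fitted, the variance prior following intensity, to log2(FPKM + 0.1), in 1 fit for 9 libraries and another for 6. P-values were adjusted by Benjamini-Hochberg over all genes of a table. Fold changes are on the log2(FPKM + 0.1) scale, which understates the change of low genes. The fitting code was run on simulated data with 200 changed genes, a check of the code and not of the results. Shares of summed FPKM were compared by exact two-sided permutation in Python 3.11.15 (numpy 2.4.6, pandas 2.3.3, figures with matplotlib 3.10.9). Gene positions came from GENCODE for GRCm38, matched by Entrez ID for 10 of 10 genes, and promoters from RefSeq (GRCm38.p6).

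The members, lists and tests were chosen with earlier results of these data known. Named were all 10 members, fixed paralogues and, for each list, the called genes up to the 5 largest. The 3 genes most like Nfatc1, Rcan1 and Tox were also named. Outside this rule, some genes were named after their values were seen. These were Atp2a2, Atp2a3, Egr3 and Il2 on activation, and Itpr2, Plcg1, Camk4, Nr4a3 and Lag3 in CTL. With PI3Kdi they were Il2, Fkbp1a, Egr2, Egr3, Irf4, Pdcd1, Lag3 and Ctla4. In the first table, replicate numbers were taken to pair the libraries of a pool, since each pool was divided between the conditions; for the CTL no pool is stated, and the pairing rests on the numbers and the correlations. Deviations from the group mean in same-numbered libraries, across genes, had r of 0.27, 0.20 and 0.51 between TCR activated and PI3Kdi, 0.12, 0.17 and 0.26 between the CTL groups, and -0.14, 0.23 and -0.18 between naïve and TCR activated. Alternatives were pseudocounts of 1 and 0.01, a minimum mean of 1 FPKM, median scaling, the replicate block, no intensity trend, other fold limits, each replicate left out, and only the compared groups. The sources used here do not say that the CTL replicates came from separate animals, so their p-values measure the spread between these samples, which may be technical.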

Additional observations from a re-analysis of the deposited data

How the results depend on the processing

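Of 390 values for the 10 genes under alternative settings, 378 kept their direction and their side of the call, 2 fell under the 2-fold limit (Nfatc3 for PI3Kdi against naïve) and 10 turned in sign, none of them past the test. This tally follows the call with its 2-fold limit, and adjusted p alone crossed 0.05 in further alternatives. The most crossings were 4 of 10 for Nfatc2 (PI3Kdi against naïve) and 4 of 9 for Orai1 (IL-2 withdrawal). Ppp3ca and Stim2 each had 3 of 10 (PI3Kdi against TCR activated). With no fold limit, 7, 3, 8 and 6 members passed for TCR activation, PI3Kdi against TCR activated, PI3Kdi against naïve and IL-2 withdrawal, in place of 4, 0, 4 and 1, and 46, 25 and 41 other pathway genes passed for the first, second and last of these in place of 30, 11 and 21. At a limit of 1.5-fold, 2 members and 17 pathway genes passed for PI3Kdi and 5 members for IL-2 withdrawal. With the replicate block the counts were 4, 0, 4 and 1 members and 30, 11 and 21 pathway genes, and for the members it moved no adjusted p across 0.05. Median scaling turned Stim2 on activation to 0.064.

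With 1 replicate number left out, the log2 fold change ran for activation from -0.16 to 0.0085 in Stim2 and from -0.030 to 0.057 in Rcan1. For PI3Kdi against TCR activated it ran from -0.041 to 0.20 in Nfatc2 and from -0.14 to 0.029 in Stim1. For PI3Kdi against naïve it ran from -0.33 to 0.069 in Nfatc1 and from -0.013 to 0.15 in Ppp3cc. For IL-2 withdrawal it ran from -0.034 to 0.36 in Nfat5, from -0.34 to 0.32 in Tox and from -0.089 to 0.21 in Rcan3, and the share of Nfatc1 changed by -1.20 to 0.91 percentage points. The cause of these turns was not tested. The counting error within the values was not estimated, since no read counts were used, and 3 libraries a group limit the precision of every interval.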
